A study of Mus musculus with 62 samples.

Results

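The autophagy machinery is the set of proteins that wraps cytoplasm, protein aggregates or mitochondria in a double membrane and delivers them to the lysosome. Its transcripts were followed here in the tibialis anterior, a shin muscle made up mostly of fast fibres, through 38 genes chosen by symbol, which are 38 of the 47643 rows of the deposited table. Their mean levels all passed the filter of at least 1 TPM over all libraries, as did 11107 of the 23019 genes with any value above 0. TPM is a transcript's share of a library, corrected for transcript length and scaled to a total of 1000000. The muscles came from female mice at 2, 4, 6 or 8 weeks after an injection of cachectic melanoma cells (CAC), of non-cachectic melanoma cells (NCAC), or after a mock injection. The age is given as 2 months for every library, and whether that is the age at injection or at collection is not known here. Each of these 12 groups had 5 libraries, except CAC at 8 weeks with 7, which makes 62 libraries called biological replicates by the labels. The series text names the mice as NCI Ath/nude, a strain without a thymus, whereas the sample labels name them as C57BL6/J, and the files do not settle which is right. The labels name neither the melanoma lines nor the site of injection, and they give no body or muscle weights.

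Autophagy begins when the ULK kinase complex and the class III phosphatidylinositol 3-kinase around Becn1 mark a membrane site. ATG9 vesicles and the lipid transfer proteins ATG2 then let the membrane grow, a chain of conjugating enzymes fixes the small ubiquitin-like Atg8 proteins (the LC3 and GABARAP families) to it, and receptors such as Sqstm1 and Bnip3 tie cargo to those Atg8 proteins. In mouse muscle the pathway is known for its part in atrophy after fasting or denervation, where transcription factors of the FoxO family raise Map1lc3b, Gabarapl1 and Bnip3 among others, while mice whose muscle lacks Atg7 lose muscle too.

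Because TPM fixes the total, changes were fitted on 2 scales, as deposited and after division by median-of-ratios size factors. These factors set the typical gene equal between libraries. The factors had medians of 1.31 in CAC muscle at 8 weeks and 0.917 in mock muscle at 8 weeks. Mitochondrially encoded transcripts, the largest block of the TPM total, took 34.7% to 41.5% (median 36.8%) in CAC libraries at 8 weeks, against 39.9% to 58.9% (median 48.8%) in mock libraries, and their part in the results was not tested. Summed macrophage markers (8 of 8 genes detected) were 96.1 to 265 TPM in CAC muscle at 8 weeks and 43.2 to 94.5 TPM in mock muscle. The neutrophil sum was 12.1 to 55.5 TPM in CAC muscle and 5.06 to 8.36 TPM in mock muscle. The adipocyte sum was 63.9 to 242 TPM in CAC muscle and 12.4 to 60.3 TPM in mock muscle. The endothelial sum was 147 to 190 TPM in CAC muscle and 82.5 to 124 TPM in mock muscle. These sums, given only as deposited, all lay above every mock library at 8 weeks. Of the genes tested, 6 of 6 macrophage, 2 of 2 neutrophil, 3 of 4 adipocyte and 3 of 4 endothelial genes were called higher as deposited. After rescaling 3, 1, 2 and 2 of them were called higher. Within the endothelial list Kdr ran the other way (means of 9.87 TPM in CAC muscle and 16.8 TPM in mock muscle) and was called lower on both scales. Fibroblast and erythroid sums overlapped. The fast fibre markers that define the labelled muscle were abundant in both groups, at 63000 to 112900 TPM in CAC muscle and 70930 to 114100 TPM in mock muscle, with 2 of 8 called higher and 2 lower as deposited, and 0 higher and 4 lower after rescaling. Melanocyte markers stayed at or below 0.295 TPM in CAC muscle at 8 weeks. The share of these other cells in the autophagy results was not tested, and in bulk muscle more cells of a type cannot be told apart from more RNA per cell. On the first principal component of all genes, which held 49.7% of the variance, 3 libraries lay farthest out, CAC replicate 1 at 6 weeks and CAC replicates 1 and 6 at 8 weeks. They carry the highest values of many genes below, so results of many members are also given without them. The fit uses 1 estimate of spread per gene for all groups. At 6 weeks the fit without them thus also leaves out CAC replicates 1 and 6 of 8 weeks, which act there only through that spread.

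In mock muscle over all weeks (n = 20) the members spanned a wide range of levels. Pink1, the kinase that flags damaged mitochondria, led with 524 ± 63.6 TPM, followed by Sqstm1 at 190 ± 30.4 TPM, Map1lc3a at 164 ± 34.4 TPM, Bnip3 at 128 ± 14.9 TPM and Gabarap at 89.8 ± 8.36 TPM (SD). Sqstm1 and Map1lc3a differ by less than their SDs, as do Gabarapl2 (60.9 ± 8.09 TPM) and Map1lc3b (58.8 ± 8.48 TPM). At the other end stood Uvrag with 2.22 ± 0.200 TPM, Pik3r4 with 2.61 ± 0.393 TPM and Atg7 with 3.01 ± 0.466 TPM. Kinase, cargo receptors and Atg8 proteins thus held the top of the list, while the 6 genes that conjugate ATG12 and LC3 lay between 3.01 and 18.2 TPM. As deposited, the summed level of all 38 genes was 3461 ± 1525 TPM in CAC muscle at 8 weeks (n = 7). It was 1869 ± 128.5 TPM in NCAC muscle and 1721 ± 271 TPM in mock muscle (n = 5 each).

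Early in the course no autophagy gene was called. With limma, an adjusted p under 0.05 was reached by 0 of 38 genes in CAC against mock muscle at 2 weeks on either scale, with 1 gene as deposited and 2 after rescaling at an unadjusted p under 0.05. Of all genes, 0.054% were called as deposited and 0.108% after rescaling. At 4 weeks 0 of 38 were called again, with 3 below an unadjusted 0.05 on each scale, where 0.936% of all genes were called as deposited and 1.55% after rescaling. The median change of the members at 4 weeks was 0.17 on the log2 scale as deposited, where the median of all genes was 0.11. The smallest adjusted p of a member at 4 weeks as deposited belonged to Optn (log2 change 0.48 ± 0.18 SE, adjusted p = 0.214). Gabarapl1 and Sqstm1, neither called at 4 weeks (adjusted p = 0.505 and 0.408 as deposited), varied between CAC libraries. Gabarapl1 measured 39.6, 98.4, 43.1, 72.4 and 42.8 TPM in the CAC libraries at 4 weeks and 37.2, 35.5, 41.2, 41.9 and 33.0 TPM in the mock libraries. Sqstm1 was 202, 386, 216, 385 and 193 TPM in CAC muscle and 210, 169, 174, 176 and 189 TPM in mock muscle. CAC replicates 2 and 4 were the high ones for both genes, and the other 3 CAC libraries lay near the mock range.

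From 6 weeks on most members rose on the deposited scale. At 6 weeks 29 of 38 (76.3%) rose in CAC against mock muscle and none fell, where 60.7% of all genes were called higher and 3.26% lower. At 8 weeks 32 of 38 (84.2%) rose and none fell, beside 69.4% of all genes higher and 5.09% lower. Rescaling divided the group. At 6 weeks 5 genes (13.2%) were then higher and 8 (21.1%) lower, beside 15.5% and 19.2% of all genes. At 8 weeks 12 (31.6%) were higher and 6 (15.8%) lower, beside 23.8% and 24.9% of all genes. The median change of the members at 8 weeks was 0.57 as deposited and 0.08 rescaled, where the median of all genes was 0.46 and 0.01, and at 6 weeks it was 0.50 and 0.11, where all genes had 0.38 and 0.00. After rescaling the members' shares at 6 weeks lie near those of all genes, and at 8 weeks more members were higher and fewer lower than among all genes, differences that were not tested. No member was called in opposite directions by the 2 scales, and 4 were higher at both 6 and 8 weeks after rescaling, namely Map1lc3a, Map1lc3b, Gabarap and Sqstm1. The share of all genes higher at both weeks is not given.

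**Figure D1:**
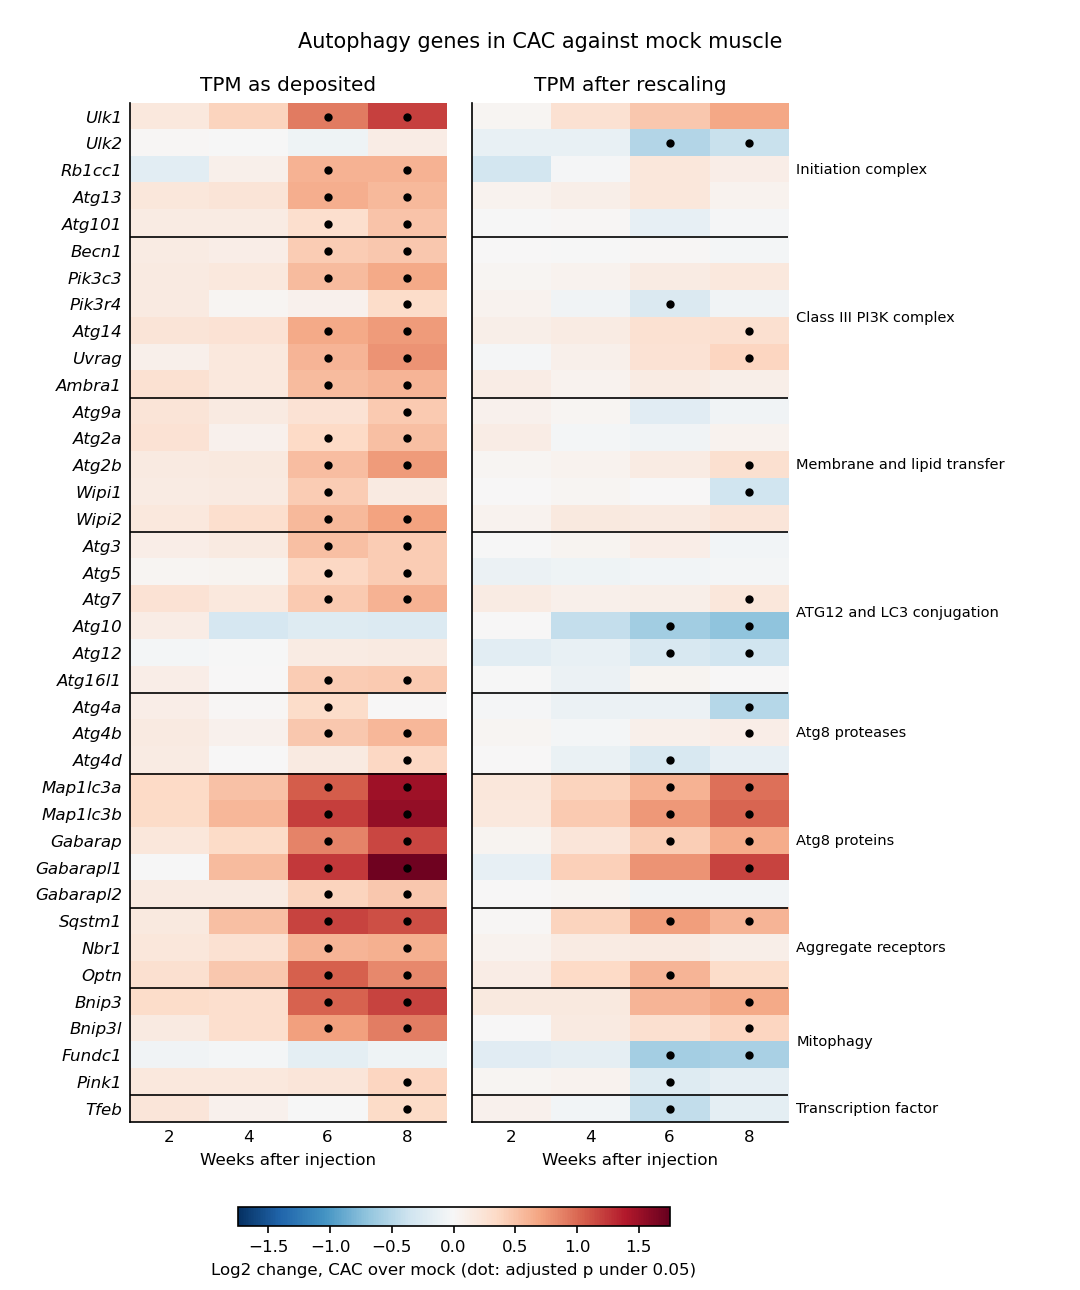
Log2 change of the 38 autophagy genes in CAC over mock muscle at 2, 4, 6 and 8 weeks, as deposited (left) and after rescaling (right), with genes grouped by role and a dot where the adjusted p is under 0.05. All 5 Atg8 genes carry a dot at 6 and 8 weeks as deposited, and 0 genes carry one at 2 or 4 weeks.

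In the initiation complex, 4 of 5 genes rose at 8 weeks as deposited and none rose after rescaling, while Ulk2 was lower. Ulk1, the kinase that receives signals from nutrient-sensing kinases, measured 17.5 to 235 TPM (median 38.1) in the 7 CAC libraries at 8 weeks, against 21.7, 29.6, 22.1, 32.3 and 15 TPM in mock muscle. Replicates 1 and 6 gave 191 and 235 TPM, while 2 of the 7 CAC libraries lay inside the mock range. The change was 1.19 ± 0.34 as deposited (log2, SE, adjusted p = 0.00176) and 0.68 ± 0.31 after rescaling (adjusted p = 0.0641). Without the 3 outlying libraries Ulk1 differed by 0.42 as deposited (adjusted p = 0.0967) and by -0.05 after rescaling (adjusted p = 0.872). At 6 weeks Ulk1 was 106, 78.9, 33.8, 32.5 and 44.8 TPM in CAC muscle and 33.2, 34.5, 21.5, 25.9 and 25.1 TPM in mock muscle. CAC replicates 3 and 4 lay inside the mock range. That call as deposited (0.92 ± 0.37, adjusted p = 0.0273) was lost without CAC replicate 1 (adjusted p = 0.131), CAC replicate 2 (0.0778) or mock replicate 3 (0.0655). Ulk2, its paralog, averaged 39.7 ± 2.14 TPM in CAC muscle at 8 weeks (n = 7) and 36.4 ± 5.48 TPM in mock muscle (n = 5), a change of 0.13 as deposited (adjusted p = 0.345) and of -0.38 ± 0.10 after rescaling (adjusted p = 0.00211), so its sign depends on the scale. Within a library the ratio of Ulk1 to Ulk2, which no scaling touches and which was chosen after the values were seen, was 0.408 to 6.04 (median 1.04) in CAC muscle at 8 weeks and 0.486 to 0.838 (median 0.654) in mock muscle. The scaffolds Rb1cc1, Atg13 and Atg101 rose as deposited by 0.50 to 0.61 and differed by -0.02 to 0.12 after rescaling, with 0 of 3 called. The call of Rb1cc1 as deposited was lost without CAC replicate 1 (adjusted p = 0.0557).

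All 6 genes of the class III lipid kinase complex rose at 8 weeks as deposited, by 0.32 to 0.78. Becn1, the scaffold of the complex, measured 20.9 to 24.7 TPM (median 22.7) in CAC muscle and 15.9, 18.7, 13.8, 18.1 and 14.5 TPM in mock muscle. As deposited all 7 CAC libraries were above all 5 mock libraries, and they lay close together. After rescaling 0 of 7 were above every mock library. The log2 change of 0.47 ± 0.09 (adjusted p = 9.93e-06) was close to the median of all genes, and after rescaling it was -0.03 ± 0.05 (adjusted p = 0.644). After rescaling the higher calls were Uvrag (0.37 ± 0.13, adjusted p = 0.0182) and Atg14 (0.28 ± 0.11, adjusted p = 0.0373), which define the alternative Becn1 complexes, the endosomal one and the autophagosomal one. Uvrag averaged 5.00 ± 2.84 TPM in CAC muscle and 2.20 ± 0.239 TPM in mock muscle, so its spread was wide. Neither gene was called after rescaling once the 3 outlying libraries were left out (Uvrag 0.09, adjusted p = 0.475, and Atg14 0.04, adjusted p = 0.734). At 6 weeks 5 of 6 rose as deposited and none rose after rescaling, while Pik3r4, the regulatory subunit, was lower after rescaling (-0.25 ± 0.06, adjusted p = 0.000997), with a change of 0.08 as deposited (adjusted p = 0.478).

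Among the genes for membrane supply and lipid transfer, 4 of 5 rose at 8 weeks as deposited, with Atg2b at 0.74 ± 0.14 (adjusted p = 8.6e-06). After rescaling Atg2b, a lipid transfer protein, was higher (0.28 ± 0.10, adjusted p = 0.0169), and without the outlying libraries it differed by 0.08 (adjusted p = 0.435). Wipi1, which binds the lipid made by the class III kinase, was lower after rescaling (-0.35 ± 0.14, adjusted p = 0.0271) and differed by 0.16 as deposited (adjusted p = 0.354). That lower call held in 5 of the 12 fits that left out 1 library. Without the outlying libraries Wipi1 was lower by more after rescaling (-0.56, adjusted p = 0.000416). As deposited it then differed by -0.09 (adjusted p = 0.577). At 6 weeks these genes gave 4 of 5 higher as deposited and 0 of 5 called after rescaling, with changes between -0.19 and 0.15.

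The genes that conjugate ATG12 and LC3 differed among themselves. As deposited, 4 of 6 rose at 8 weeks, and after rescaling 1 was higher and 2 were lower. Atg7, the activating enzyme that both conjugation systems share, measured 3.44 to 7.11 TPM (median 4.52) in CAC muscle at 8 weeks, against 2.73, 3.49, 2.77, 3.04 and 2.28 TPM in mock muscle. Its change was 0.61 ± 0.13 as deposited (adjusted p = 3.05e-05) and 0.20 ± 0.08 after rescaling (adjusted p = 0.0492), and the rescaled call held in 4 of the 12 fits that left out 1 library. The substrate and conjugating enzyme of the first system went lower after rescaling, namely Atg12 (-0.35 ± 0.07, adjusted p = 5.24e-05) and Atg10 (-0.70 ± 0.21, adjusted p = 0.0049), each called in all 12 fits that left out 1 library. As deposited Atg12 averaged 20.1 ± 4.09 TPM in CAC muscle and 17.7 ± 1.81 TPM in mock muscle, a change of 0.15 (adjusted p = 0.166), so the direction again depends on the scale, and without CAC replicate 7 it rose as deposited (0.23, adjusted p = 0.0324). Atg10 differed by -0.24 as deposited (adjusted p = 0.233). Atg3, Atg5 and Atg16l1 rose by 0.44 to 0.46 as deposited and differed by -0.05 to 0.01 after rescaling, with 0 of 3 called.

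The 3 proteases that trim Atg8 proteins and free them from membranes differed among themselves. Atg4b, the main LC3 protease, rose by 0.58 ± 0.09 as deposited (adjusted p = 3.5e-07) and was higher by 0.12 ± 0.05 after rescaling (adjusted p = 0.0295), a call that held in 8 of the 12 fits that left out 1 library. Atg4a was lower after rescaling (-0.50 ± 0.08, adjusted p = 2.16e-06), averaging 15.3 ± 2.51 rescaled TPM in CAC muscle and 21.9 ± 1.78 rescaled TPM in mock muscle, while as deposited it averaged 20.1 ± 2.79 TPM in CAC muscle and 20.04 ± 2.18 TPM in mock muscle (adjusted p = 0.998). A near-copy of Atg4a, Atg4a-ps, is annotated elsewhere, and how the authors divided shared reads is not known, so its values are uncertain. Atg4d rose by 0.37 as deposited and differed by -0.14 after rescaling (adjusted p = 0.12).

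Gabarapl1, Map1lc3b and Map1lc3a, all Atg8 genes, had the 3 largest log2 changes among the members at 8 weeks as deposited and after rescaling. All 5 Atg8 genes rose at 6 and at 8 weeks as deposited, and after rescaling 3 were higher at 6 weeks and 4 at 8 weeks. Map1lc3a measured 271 to 547 TPM (median 456) in CAC muscle at 8 weeks, against 163, 204, 126, 178 and 103 TPM in mock muscle. Every CAC library was above every mock library, and the change of 1.49 ± 0.18 as deposited (adjusted p = 2.24e-09) was 0.96 ± 0.16 after rescaling (adjusted p = 3.56e-06). Map1lc3b, the LC3 form most often used to count autophagosomes, measured 63.3 to 349 TPM (median 160) in CAC muscle and 52.9, 64.8, 56.8, 60.3 and 40.1 TPM in mock muscle. CAC replicate 3 alone fell inside the mock range, and the change was 1.54 ± 0.23 as deposited (adjusted p = 8.91e-08) and 1.02 ± 0.19 after rescaling (adjusted p = 2.82e-05). Gabarap, the founder of the second Atg8 branch, measured 115 to 368 TPM (median 192) in CAC muscle and 79.8, 105, 82.2, 90.9 and 71.0 TPM in mock muscle, with no overlap as deposited. After rescaling 6 of 7 CAC libraries lay above every mock library of Gabarap. The change of Gabarap was 1.17 ± 0.16 as deposited (adjusted p = 1.72e-08) and 0.65 ± 0.14 after rescaling (adjusted p = 9.93e-05). These 3 genes remained called after rescaling without the 3 outlying libraries, at 0.86 for Map1lc3a, 0.64 for Map1lc3b and 0.41 for Gabarap, and no other member was called higher there at 8 weeks. At 6 weeks Map1lc3a was 654, 281, 327, 335 and 310 TPM in CAC muscle and 232, 139, 159, 183 and 166 TPM in mock muscle. Map1lc3b was 319, 180, 115, 113 and 104 TPM in CAC muscle and 68.2, 72.0, 55.5, 65.1 and 63.9 TPM in mock muscle. Neither gene overlapped between the groups, and CAC replicate 1 was the highest for both. Their rescaled changes at 6 weeks were 0.61 ± 0.18 for Map1lc3a (adjusted p = 0.00545) and 0.76 ± 0.21 for Map1lc3b (adjusted p = 0.00406), and that of Gabarap was 0.43 ± 0.15 (adjusted p = 0.0192). Without CAC replicate 1 the adjusted p was 0.0503 for Map1lc3a, 0.0452 for Map1lc3b and 0.194 for Gabarap. Without all 3 outlying libraries it was 0.0412 for Map1lc3a (0.45), 0.0043 for Map1lc3b (0.55) and 0.0469 for Gabarap (0.24), with the rescaled log2 change in brackets. That fit also left out libraries of 8 weeks, which act at 6 weeks only through the shared spread, and all 3 changes were smaller in it.

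Gabarapl1, a close relative of Gabarap, had the largest mean change and the widest spread of all members. It measured 32.9 to 740 TPM (median 86.0) in CAC muscle at 8 weeks, against 28.8, 43.8, 33.2, 37.7 and 29.4 TPM in mock muscle. Replicates 1 and 6 reached 740 and 515 TPM, and replicates 3 and 4 lay within the mock range. The SD of log2 values in CAC muscle was 1.74, where the median SD of the members was 0.34. The change was 1.70 ± 0.38 as deposited (adjusted p = 0.000112) and 1.18 ± 0.36 after rescaling (adjusted p = 0.00637), and without the outlying libraries 0.26 after rescaling (adjusted p = 0.28). Gabarapl1 was not called after rescaling at 6 weeks (0.79 ± 0.39, adjusted p = 0.11). Without the 3 outlying libraries its change at 6 weeks was smaller but called (0.56, adjusted p = 0.0276). That fit also left out replicates 1 and 6 of 8 weeks, which act at 6 weeks only through the shared spread. The call of Gabarapl1 as deposited at 6 weeks was lost without CAC replicate 1 (adjusted p = 0.0577). Exons of an antisense transcript, 1700101I11Rik, overlap Gabarapl1, and since the strand setting of the counting is not known their reads cannot be told apart. Other members, among them Map1lc3b, Sqstm1 and Bnip3, share this limit. Gabarapl2 followed the typical gene instead. It measured 67.8 to 90.9 TPM (median 80.9) in CAC muscle and 66.8, 76.9, 52.8, 62.8 and 39.6 TPM in mock muscle, overlapping, with a change of 0.47 ± 0.12 as deposited (adjusted p = 0.000364) and -0.05 ± 0.09 after rescaling (adjusted p = 0.638).

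**Figure D2:**
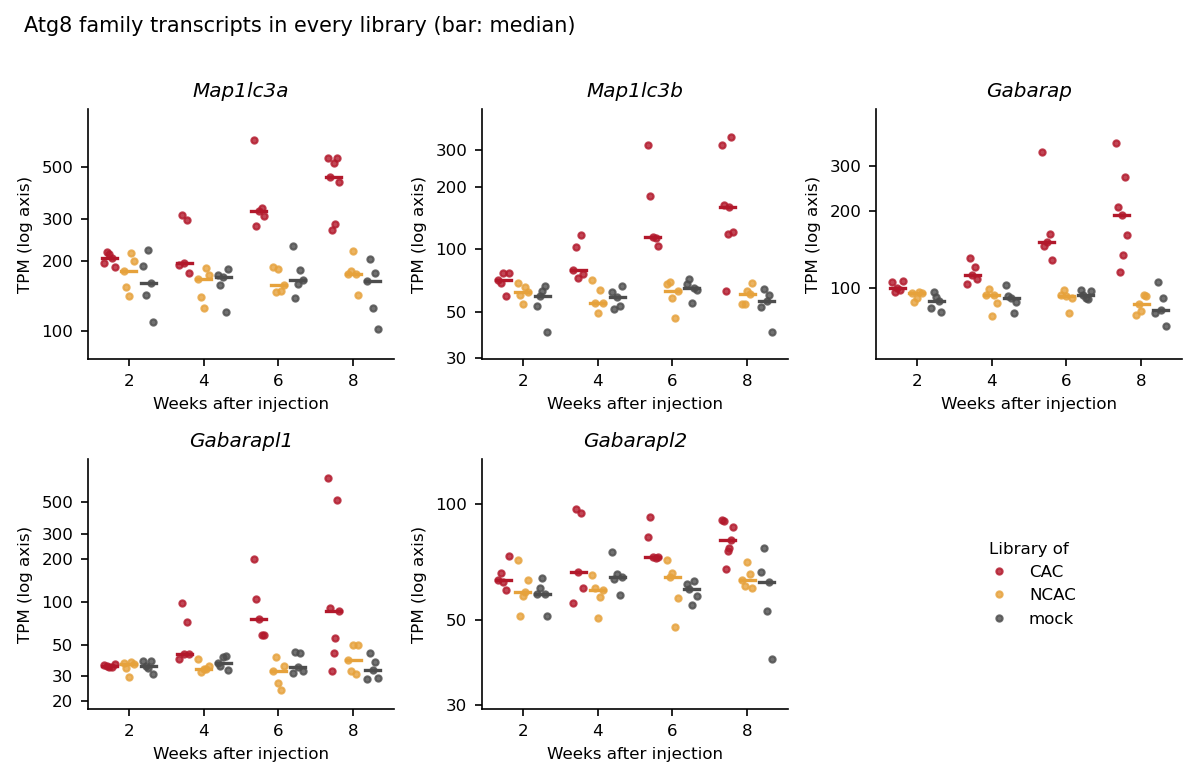
TPM of the 5 Atg8 genes in every library on a log axis, by week, with CAC, NCAC and mock libraries side by side and bars at the medians. Map1lc3a and Gabarap of CAC muscle stand clear of mock muscle at 6 and 8 weeks, Gabarapl1 reaches 740 TPM in 1 CAC library, and Gabarapl2 overlaps at 8 weeks.

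Ratios within a library need no scaling, and they were chosen after the values were seen. The summed Atg8 genes over the summed conjugation genes gave 7.89 to 25.4 (mean 16.0 ± 6.43, n = 7) in CAC muscle at 8 weeks. The ratio was 7.025 to 8.79 (mean 7.80 ± 0.728) in NCAC muscle and 5.62 to 7.88 (mean 6.95 ± 0.963, n = 5) in mock muscle. The lowest CAC ratio (7.892) lay inside the NCAC range and just above the highest mock ratio (7.881). At 6 weeks the ratio was 11.3 to 20.2 in CAC muscle, 6.70 to 8.31 in NCAC muscle and 7.58 to 8.91 in mock muscle, without overlap. Means by week in CAC muscle were 8.14, 9.95, 13.4 and 16.0 at 2, 4, 6 and 8 weeks. The makeup of the Atg8 pool shifted as well. Gabarapl2 made up 4.41% to 12.3% (mean 8.40%) of Atg8 transcripts in CAC muscle at 8 weeks and 14.01% to 17.1% (mean 15.3%) in mock muscle, while the share of Map1lc3a overlapped at means of 42.3% in CAC muscle and 39.3% in mock muscle.

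**Figure D3:**
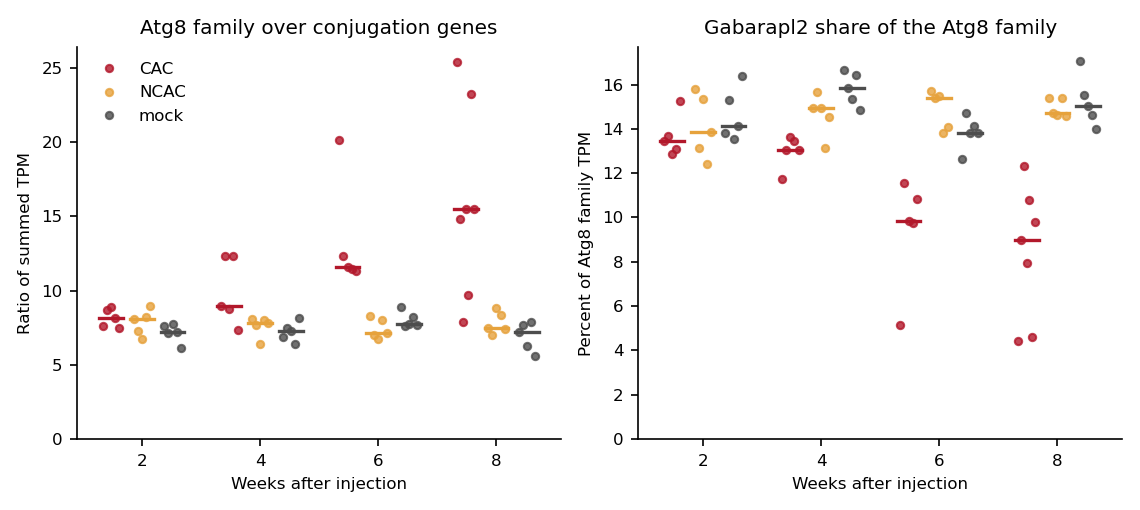
Ratio of summed Atg8 to summed conjugation transcripts (left) and the percent of Atg8 transcripts that were Gabarapl2 (right) in every library, by week, for CAC, NCAC and mock muscle, with bars at the medians. At 6 weeks the lowest CAC ratio is 11.3 and the highest mock ratio 8.91.

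Promoters are shown for the Atg8 genes Map1lc3b, Gabarapl1 and Gabarapl2 and for Bnip3. The window of Gabarap was searched but is not shown, and Map1lc3a had no window. The table of RefSeq (GRCm38.p6) held 35 windows for 31 of the 38 members. Shown in lower case, 5′ to 3′ on the strand of the gene, are the bases that precede each RefSeq start by up to 250, less any base that GENCODE M21 places in an exon of the gene. Capitals mark a match of a searched motif. Map1lc3b lies at chr8:121590188-121590360 on the plus strand, Gabarapl1 at chr6:129532942-129533159 on the plus strand, Gabarapl2 at chr8:111940453-111940702 on the plus strand and Bnip3 at chr7:138909520-138909756 on the minus strand. The Gabarapl1 window also lies in an exon of the antisense transcript 1700101I11Rik.
Map1lc3b: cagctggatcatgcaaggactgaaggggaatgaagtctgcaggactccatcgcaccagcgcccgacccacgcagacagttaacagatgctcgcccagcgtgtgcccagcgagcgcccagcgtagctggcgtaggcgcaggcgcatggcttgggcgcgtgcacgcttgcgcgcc
Gabarapl1: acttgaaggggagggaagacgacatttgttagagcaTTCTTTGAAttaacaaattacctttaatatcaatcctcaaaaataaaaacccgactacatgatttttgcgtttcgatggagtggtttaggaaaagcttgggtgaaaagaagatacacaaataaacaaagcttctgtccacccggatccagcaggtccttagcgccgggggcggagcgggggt
Gabarapl2: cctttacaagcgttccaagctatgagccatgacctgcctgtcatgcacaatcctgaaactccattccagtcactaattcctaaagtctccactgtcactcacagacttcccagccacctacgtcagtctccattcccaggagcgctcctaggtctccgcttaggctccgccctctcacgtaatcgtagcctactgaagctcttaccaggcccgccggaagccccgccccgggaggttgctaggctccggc
Bnip3: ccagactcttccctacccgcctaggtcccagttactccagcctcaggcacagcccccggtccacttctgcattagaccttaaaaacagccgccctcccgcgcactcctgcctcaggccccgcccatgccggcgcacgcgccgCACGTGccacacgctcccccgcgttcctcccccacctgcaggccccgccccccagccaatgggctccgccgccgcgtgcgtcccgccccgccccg
The Gabarapl1 window holds a STAT-type palindrome that starts 214 bases before the start site, and the Bnip3 window holds an E-box 108 bases before it, while the Map1lc3b and Gabarapl2 stretches hold none of the motifs. Whole windows of 250 bases before to 50 bases after the start were searched on both strands. An E-box (CACGTG) was found in 14.3% of member windows (Atg14, Atg3, Atg5, Atg7 and Bnip3) and 7.15% of all 32851 windows. TCACGTGA, the core of the motif read by Tfeb and an E-box in itself, was found in Atg3 (2.86% of member windows) and in 0.974% of all windows. TTCNNNGAA, of the STAT type, was found in Gabarap, Gabarapl1, Nbr1 and Wipi1 (11.4%, all windows 8.3%). ACANNNTGT, a loose form of the glucocorticoid receptor site, was found in Ambra1 (2.86%, all windows 6.85%). TGTTTAC, a strict form of the FoxO type, was found in 0% of member windows and 3.65% of all windows. Other forms of the FoxO site were not searched, so the 0% does not show that members lack such sites. A match describes these letters and shows no binding.

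The 3 receptors for aggregates all rose at 6 and 8 weeks as deposited. Sqstm1, also called p62, which binds ubiquitin and LC3 and is itself degraded by autophagy, measured 140 to 1123 TPM (median 376) in CAC muscle at 8 weeks, against 169, 231, 160, 232 and 142 TPM in mock muscle. Replicates 1 and 6 reached 1123 and 956 TPM, and replicate 3 lay below every mock library. The change was 1.13 ± 0.27 as deposited (adjusted p = 0.000286) and 0.60 ± 0.24 after rescaling (adjusted p = 0.037), and the rescaled value without the outlying libraries was 0.10 (adjusted p = 0.681). At 6 weeks Sqstm1 was 1034, 547, 362, 333 and 356 TPM in CAC muscle and 232, 222, 182, 223 and 193 TPM in mock muscle, with no overlap. That change was 1.18 ± 0.30 as deposited (adjusted p = 0.000699) and 0.73 ± 0.26 after rescaling (adjusted p = 0.0262). After rescaling the adjusted p was 0.16 once CAC replicate 1 was left out. Without all 3 outlying libraries the change was smaller, at 0.50, but called (adjusted p = 0.0304). That fit also left out replicates 1 and 6 of 8 weeks, which act at 6 weeks only through the shared spread. Optn, a receptor in the clearance of mitochondria and bacteria, measured 115, 66.1, 90.9, 86.0 and 71.3 TPM in CAC muscle at 6 weeks and 60.6, 33.5, 32.1, 48.8 and 33.8 TPM in mock muscle. All 5 CAC libraries lay above the mock libraries as deposited, and 3 of 5 lay above all of them after rescaling. The change was 1.04 ± 0.18 as deposited (adjusted p = 5.72e-06) and 0.60 ± 0.15 after rescaling (adjusted p = 0.00179), called in all 10 fits that left out 1 library. At 8 weeks Optn was 0.84 ± 0.16 as deposited (adjusted p = 1.59e-05) and 0.32 ± 0.14 after rescaling (adjusted p = 0.0534). Nbr1 rose by 0.62 as deposited and differed by 0.10 after rescaling (adjusted p = 0.429).

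Of the 4 genes of mitophagy, the removal of mitochondria, 3 rose at 8 weeks as deposited, and after rescaling Bnip3 and Bnip3l were higher and Fundc1 lower. Bnip3, an outer membrane receptor that binds LC3 directly, measured 139 to 905 TPM (median 214) in CAC muscle at 8 weeks, against 117, 162, 130, 110 and 127 TPM in mock muscle. Replicates 1 and 6 reached 905 and 829 TPM, and 2 of the 7 CAC libraries lay inside the mock range. Its change was 1.19 ± 0.27 as deposited (adjusted p = 0.000122) and 0.66 ± 0.26 after rescaling (adjusted p = 0.0288), and 0.08 after rescaling without the outlying libraries (adjusted p = 0.704). At 6 weeks the values were 624, 272, 211, 181 and 219 TPM in CAC muscle and 140, 141, 138, 130 and 109 TPM in mock muscle, without overlap as deposited. After rescaling 4 of 5 CAC libraries lay above every mock library, and the change of 0.59 ± 0.28 was not called (adjusted p = 0.0896). Bnip3l, its homolog, rose by 0.90 ± 0.18 as deposited (adjusted p = 2.74e-05) and by 0.38 ± 0.15 after rescaling (adjusted p = 0.0343), with a processed copy, Bnip3l-ps, that makes its values uncertain. Without the outlying libraries it differed by 0.03 after rescaling (adjusted p = 0.791). Within a library the ratio of Bnip3 to Fundc1 was 6.70 to 52.6 in CAC muscle at 8 weeks and 5.33 to 7.77 in mock muscle, which overlap. Fundc1, the receptor known for mitophagy in hypoxia, averaged 14.5 ± 1.82 rescaled TPM in CAC muscle and 21.9 ± 1.32 rescaled TPM in mock muscle at 8 weeks. Its rescaled values did not overlap, at 10.8 to 16.4 in CAC muscle and 20.6 to 23.9 in mock muscle, and the rescaled change of -0.57 ± 0.09 (adjusted p = 5.05e-07) was called in all 12 fits that left out 1 library. As deposited Fundc1 averaged 19.0 ± 2.10 TPM in CAC muscle and 20.1 ± 2.45 TPM in mock muscle, a change of -0.07 (adjusted p = 0.555). Pink1 rose by 0.37 ± 0.10 as deposited (adjusted p = 0.000814) and differed by -0.16 ± 0.08 after rescaling (adjusted p = 0.0815), and at 6 weeks it was lower after rescaling (-0.23 ± 0.08, adjusted p = 0.0231).

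**Figure D4:**
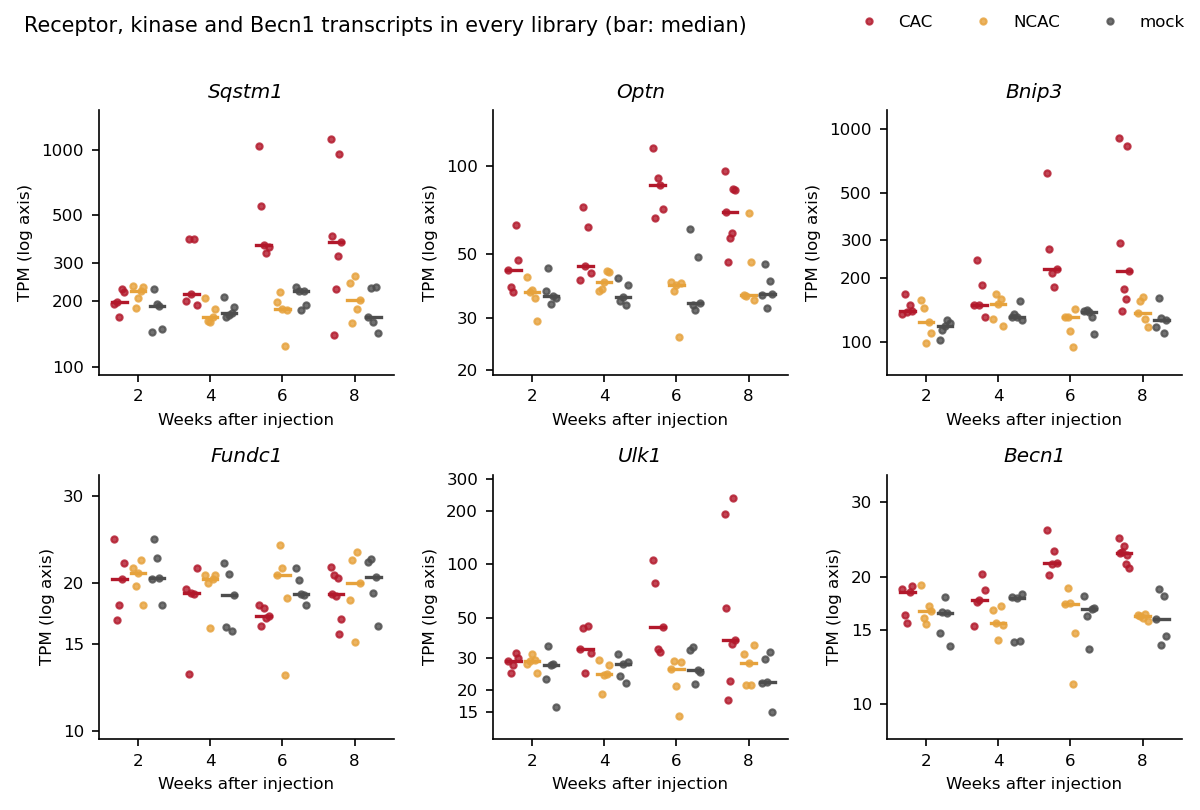
TPM as deposited of Sqstm1, Optn, Bnip3, Fundc1, Ulk1 and Becn1 in every library on a log axis, by week, with CAC, NCAC and mock libraries side by side and bars at the medians. Among the libraries of 8 weeks, a CAC pair holds the top values of Sqstm1 (1123 and 956 TPM), Bnip3 (905 and 829 TPM) and Ulk1 (235 and 191 TPM). Becn1 lies between 20.9 and 24.7 TPM in all 7 CAC libraries of 8 weeks.

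Tfeb, the transcription factor that drives lysosome and autophagy genes, was higher as deposited at 8 weeks and lower after rescaling at 6 weeks. It measured 19.0 to 25.4 TPM (median 20.3) in CAC muscle at 8 weeks and 16.1, 20.4, 18.7, 17.9 and 11.4 TPM in mock muscle. The ranges overlap, and the call as deposited (0.33 ± 0.11, adjusted p = 0.00687) was lost without mock replicate 5 (0.20, adjusted p = 0.0932). After rescaling the change was -0.17 ± 0.09 at 8 weeks (adjusted p = 0.102) and -0.43 ± 0.10 at 6 weeks (adjusted p = 0.000452), where the value as deposited was -0.01 (adjusted p = 0.969). All 5 CAC libraries at 6 weeks then lay below every mock library on the rescaled scale. Against NCAC muscle Tfeb was lower after rescaling at 6 weeks (-0.38 ± 0.10, adjusted p = 0.00134) and at 8 weeks (-0.31 ± 0.09, adjusted p = 0.00352), with 0.10 and 0.18 as deposited, neither called. Its activity is set largely by its location in the cell, which RNA does not show.

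**Figure D5:**
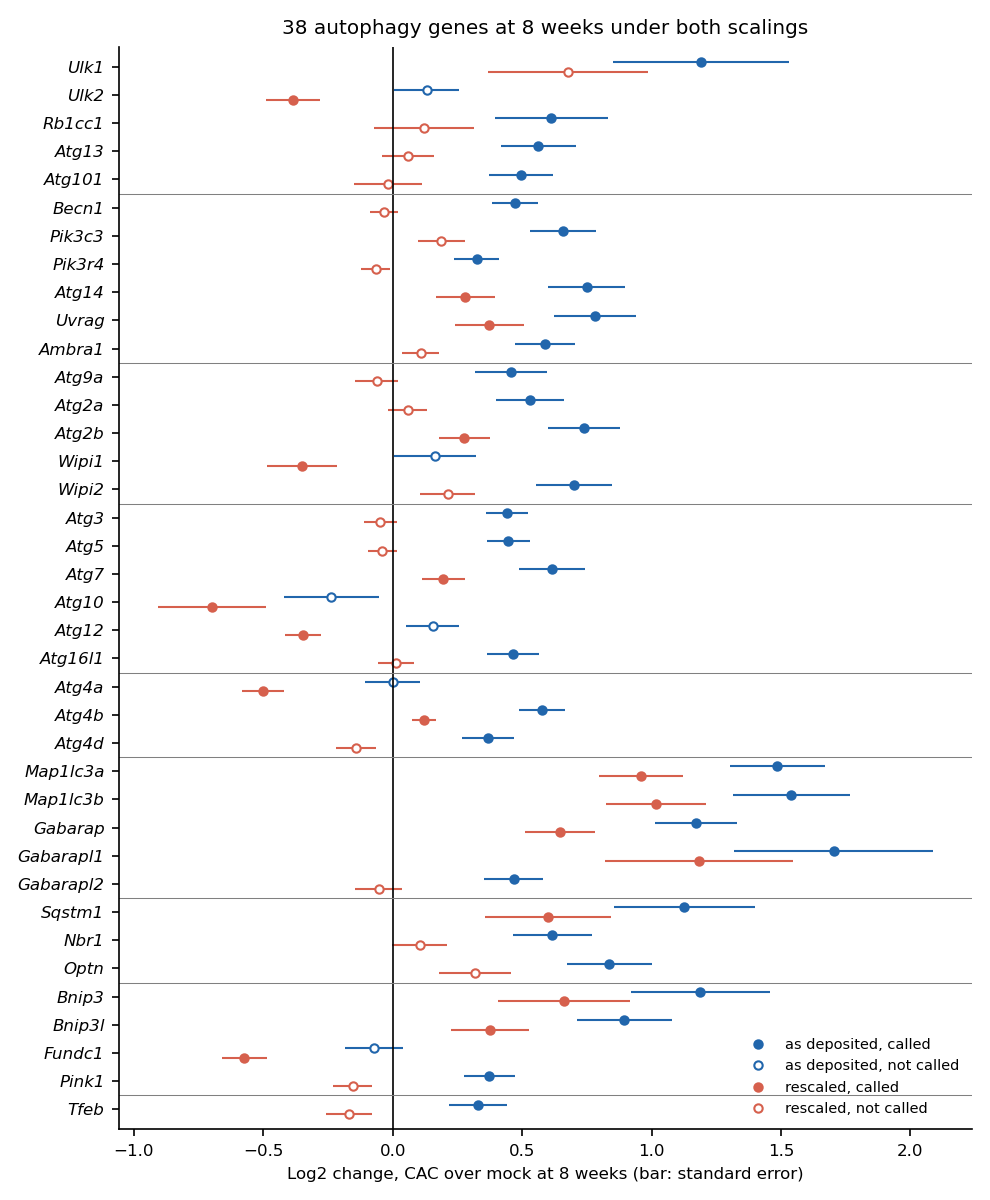
Log2 change and SE of the 38 genes in CAC over mock muscle at 8 weeks, in the order of their roles, on each scale, with filled points where the adjusted p is under 0.05. As deposited 32 genes have filled points, all above 0, and after rescaling 12 have them above 0 and 6 below.

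Non-cachectic tumours gave no called change. Averaged over the 4 weeks, 0 of 38 members differed between NCAC and mock muscle by limma on either scale, 0 also at an unadjusted p under 0.05, with changes between -0.11 and 0.12 as deposited, and 0% of all genes were called on either scale. The fit gives a gene 1 spread for all groups, whereas the median SD of the members as deposited (log2) was 0.13, 0.18, 0.25 and 0.34 in CAC muscle at 2, 4, 6 and 8 weeks and 0.125 to 0.235 in the mock groups. SEs and p-values are therefore too small where CAC muscle at 8 weeks is compared and may be too large at 2 weeks. With only the compared groups in the fit, 0 of 38 were called as deposited in CAC against mock muscle at 2 and at 4 weeks.

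CAC muscle set against NCAC muscle, the comparison between tumours of the 2 kinds, shares its CAC libraries with the comparison against mock muscle. At 2 weeks 0 of 38 were called on either scale, with 0 at an unadjusted p under 0.05, beside 0.063% of all genes as deposited and 0.054% after rescaling. At 4 weeks 0 of 38 were called, with 9 as deposited and 3 after rescaling at an unadjusted p under 0.05, beside 5.27% and 7.17% of all genes. At 6 weeks 30 rose and none fell as deposited, beside 64.2% of all genes higher and 3.52% lower, and after rescaling 10 were higher and 8 lower, beside 19.4% and 22.6%. At 8 weeks 31 rose and none fell as deposited, beside 67% of all genes higher and 5.04% lower, and after rescaling 6 were higher and 8 lower, beside 23.4% and 25.6%. After rescaling, Map1lc3a, Map1lc3b and Gabarap were higher and Ulk2, Atg12 and Fundc1 lower in all 4 comparisons of CAC with mock or NCAC muscle at 6 and 8 weeks, 3 genes in each direction that were singled out after their values were seen. The share of all genes that meet the same rule is not given. These counts therefore do not set the members apart from other genes. Against NCAC muscle at 8 weeks the rescaled change was 0.74 ± 0.16 for Map1lc3a (adjusted p = 0.000181), 0.89 ± 0.19 for Map1lc3b (adjusted p = 0.000184) and 0.65 ± 0.14 for Gabarap (adjusted p = 8.98e-05). Sqstm1, in contrast, reached 0.44 ± 0.24 there (adjusted p = 0.124), with 243, 159, 262, 185 and 202 TPM in NCAC muscle. Ambra1, a regulator of Becn1, and Atg13 were higher after rescaling against NCAC muscle at 6 weeks (0.31, adjusted p = 0.00111, and 0.32, adjusted p = 0.0168) and not against mock muscle (0.14, adjusted p = 0.154, and 0.20, adjusted p = 0.141), and whether these changes differ was not tested.

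Whether the response grew between weeks was tested as a difference of differences. From 4 to 6 weeks 0 of 38 members were called on either scale, with 8 as deposited and 5 after rescaling at an unadjusted p under 0.05, beside 0.882% of all genes as deposited and 0% after rescaling. From 6 to 8 weeks 0 were called, with 2 and 3 at an unadjusted p under 0.05, and 0% of all genes were called on either scale. No step between weeks was called for a member, although the number of called genes differed by week, and up to 3 members were called higher from 4 to 6 weeks as deposited when 1 library was left out (3 without CAC replicate 2 of 4 weeks).

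Of the other autophagy genes listed, 25 of 28 could be tested. As deposited 20 rose and none fell in CAC against mock muscle at 8 weeks, and after rescaling 7 were higher and 7 lower, where 69.4% of all genes were higher as deposited and 23.8% higher and 24.9% lower after rescaling. The 4 with the smallest adjusted p after rescaling were all lower on that scale and not called as deposited. Ykt6, a SNARE of autophagosomes, changed by -0.49 ± 0.08 after rescaling (adjusted p = 1.2e-06) and 0.02 as deposited (adjusted p = 0.857), Vamp8, the lysosomal SNARE, by -0.46 (adjusted p = 0.000128) and 0.02, and Stx17, its partner on the autophagosome, by -0.28 (adjusted p = 0.00107) and 0.21. The fourth was Tmem41b, a lipid scramblase (-0.27, adjusted p = 0.00402, and 0.20). Of the 30 regulators listed, 22 rose and 1 fell as deposited, and 9 were higher and 7 lower after rescaling, beside the same shares of all genes. Ddit4, an inhibitor of mTORC1 that stress and glucocorticoids induce, averaged 236 ± 253 TPM in CAC muscle (n = 7), with an SD above its mean. In mock muscle (n = 5) it averaged 6.73 ± 1.93 TPM. Its change was 4.31 as deposited (adjusted p = 7.76e-08) and 3.80 after rescaling (adjusted p = 2.65e-06). Foxo1, a FoxO factor of muscle atrophy, averaged 24.6 ± 15.5 TPM in CAC muscle and 3.69 ± 0.381 TPM in mock muscle (2.18, adjusted p = 6.22e-07, and 1.70, adjusted p = 5.92e-05). Trp53inp2, a nuclear and autophagosomal cofactor of LC3 that is abundant in muscle, fell to 95.9 ± 40.02 TPM in CAC muscle, against 168 ± 31.7 TPM in mock muscle, with changes of -0.88 as deposited (adjusted p = 9.1e-06) and -1.40 after rescaling (adjusted p = 1.22e-08). Nprl2, a subunit of a complex that restrains mTORC1, was lower after rescaling (-0.30, adjusted p = 0.000251) and differed by 0.18 as deposited (adjusted p = 0.072). For these other genes and regulators no fit without the outlying libraries is given, so how far their means rest on those libraries is not shown.

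The higher counts after rescaling at 8 weeks changed with the libraries and groups in the fit. The shares of all genes called in these refits are not given. Whether the members' counts moved more than those of all genes was not tested. In place of 12 members higher after rescaling at 8 weeks, 4 were called without CAC replicate 1, 4 without CAC replicate 6, 7 without mock replicate 3 and 3 without all 3 outlying libraries, and the fit of the compared groups alone called 3. At 6 weeks, in place of 5, 2 were called without CAC replicate 1, 8 without CAC replicate 3 and 6 without all 3 outlying libraries. The last of these fits also left out libraries of 8 weeks, which act at 6 weeks only through the shared spread. CAC replicate 3 at 8 weeks, whose erythroid markers summed to 14740 TPM, was the lowest of the 7 CAC libraries after rescaling for 18 of 38 members, and CAC replicate 1 the highest for 17.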

How the data were processed

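RNA of tibialis anterior muscle was sequenced after a stranded mRNA library preparation, per the labels' protocols. The deposited values are TPM per gene symbol and library, made by the authors against mm10 per the submitters' processing notes. Of the aligner, the counting tool, its strand setting and the annotation nothing is said in the sources used here. TPM sums to 1000000 in each of the 62 libraries and keeps no read depth, so no counting interval is given. Exons of 13 of the 38 members overlap another gene, 12 of them on the opposite strand, and such reads cannot be told apart. Those on the opposite strand include Gabarapl1, Map1lc3b, Sqstm1, Bnip3, Becn1, Optn, Uvrag, Atg14 and Atg2b.

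Values were fitted as log2(TPM + 1) with limma 3.58.1 in R 4.3.3, 1 mean for each of 12 groups, 50 residual degrees of freedom, a mean-variance trend and Benjamini-Hochberg adjustment within each comparison over 11107 genes of mean TPM at or above 1. Fold changes on this scale understate those of low genes. Rescaled values are TPM divided by median-of-ratios size factors (0.607 to 1.45) from 13867 genes above 0 in every library. Within-group correlations over 131 pairs were 0.898 to 0.991, and no library was a copy of another. The procedure was tested on simulated data. Alternatives were the pseudocount, the filter, the scaling, the groups in the fit, the replicate number as a block and each library left out. Python 3.11.15, pandas 2.3.3, numpy 2.4.6 and matplotlib 3.10.9 were also used.

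Members and lists were chosen with earlier results of these data known. Values at 8 weeks are given for a panel of 9 genes (Ulk1, Becn1, Atg7, Map1lc3a, Map1lc3b, Gabarapl1, Sqstm1, Bnip3 and Tfeb). The same holds for up to 5 members with the largest increase or decrease called in the same direction on both scales at 8 weeks. Mock libraries are given singly and CAC libraries by range and median. Library values of other weeks are given for some of these genes. The rule also took in members called early or in opposite directions, of which there were 0. Values of Gabarapl2, Optn and Fundc1 were added after they were seen. Of the other lists, up to 4 called genes with the smallest adjusted p after rescaling are named.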

Additional observations from a re-analysis of the deposited data

Results flagged for a closer look

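In 6 of 120 sets of 1 named gene in 1 group, a library lay far from its group by Dixon's test, which chance gives in about 1 of 20 sets. In CAC muscle at 6 weeks replicate 1 was the high one for Map1lc3a (654 TPM, next 334.8), Gabarap (340.1 TPM, next 162.7), Bnip3 (623.6 TPM, next 271.8) and Atg7 (8.264 TPM, next 4.618). In NCAC muscle Atg7 was low in replicate 4 at 6 weeks (1.772 TPM, next 3.3), and Tfeb was low in replicate 3 at 4 weeks (17.13 TPM, next 19.71). The cause was not tested.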

How the results depend on the processing

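TPM shows shares of a library, not amounts of RNA per muscle, and counts as deposited moved most with the scaling, while higher counts after rescaling also moved with the libraries and groups in the fit. Rescaling gave 5 higher and 8 lower in CAC against mock muscle at 6 weeks, 12 and 6 at 8 weeks, and 10 and 8, then 6 and 8, against NCAC muscle. Members with a log2 change above 0 numbered 34 as deposited and 24 rescaled at 4 weeks against mock muscle, and against NCAC muscle 35 as deposited and 25 rescaled at 6 weeks, and 36 as deposited and 20 rescaled at 8 weeks. Of the 9 panel genes and Gabarap, rescaling turned Becn1 (-0.004) and Tfeb (-0.045) at 4 weeks. Of all members, it turned at 6 weeks Atg101 (-0.140), Pik3r4 (-0.251), Atg9a (-0.193), Atg2a (-0.063), Atg5 (-0.044), Atg12 (-0.281), Atg4a (-0.108), Atg4d (-0.275), Gabarapl2 (-0.053) and Pink1 (-0.231). At 8 weeks it turned Ulk2 (-0.384), Atg101 (-0.019), Becn1 (-0.032), Pik3r4 (-0.066), Atg9a (-0.062), Wipi1 (-0.352), Atg3 (-0.048), Atg5 (-0.040), Atg12 (-0.347), Atg4d (-0.141), Gabarapl2 (-0.054), Pink1 (-0.155) and Tfeb (-0.170), and, of the panel genes and Gabarap against NCAC muscle, Tfeb (-0.378 at 6 weeks, -0.306 at 8 weeks) and Becn1 (-0.016 at 8 weeks). Against NCAC muscle at 4 weeks 1 member was called higher with a pseudocount of 0.1, with only the compared groups and with the replicate block. The other alternatives after rescaling were chosen after seeing the data. Higher at 8 weeks against mock muscle, only the compared groups gave 3, the replicate block 4 and leaving out the 3 outlying libraries 3. Against NCAC muscle at 8 weeks each gave 3 higher, and at 6 weeks the compared groups and the fit without the outlying libraries gave 5 lower each. Size factors from the 10999 genes kept moved no count past 1.5 times. The replicate numbers pair no samples (correlations -0.332 to 0.332, never above 0.1 in all 5 pairs), and the replicate block turned Atg4a (0.068) and Fundc1 (0.008) at 8 weeks. Without the outlying libraries Wipi1 (-0.092) and Atg4a (0.032) turned at 8 weeks. Without 1 library, members higher numbered 23 to 29 at 6 weeks and 31 to 33 at 8 weeks against mock muscle, and 0 to 3 at 4 weeks (3 without CAC replicate 1), 24 to 31 at 6 weeks and 26 to 32 at 8 weeks against NCAC muscle, with 0 to 1 lower at 6 weeks (1 without NCAC replicate 4). The step from 4 to 6 weeks gave 0 to 3 (3 without CAC replicate 2 of 4 weeks). After rescaling these fits gave 2 to 8 higher and 6 to 8 lower at 6 weeks and 4 to 16 higher and 5 to 8 lower at 8 weeks against mock muscle. Against NCAC muscle they gave 5 to 13 higher (5 without CAC replicate 1, 6 without NCAC replicate 4) and 5 to 8 lower (5 without CAC replicate 1) at 6 weeks, and 3 to 12 higher (3 without CAC replicate 1 or 6, 12 without CAC replicate 3) and 7 to 9 lower at 8 weeks. Without 1 library the log2 change as deposited took either sign for Atg4a at 8 weeks (-0.046 to 0.054) and for Tfeb at 6 weeks (-0.070 to 0.038 against mock muscle, -0.007 to 0.169 against NCAC muscle). Of the values of single members under all alternatives, 1667 kept direction and side of the threshold, 72 lost the call, 9 gained it and 44 turned. The cause was not tested.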
